A study of Mus musculus with 14 samples.

Results

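Gene expression for making and for breaking down glucose was followed in the mouse ileum through 9 genes, taken by symbol from the deposited table and all present among the 46855 symbols analysed. Slc37a4, G6pc, Fbp1, Pck1 and Pck2 encode steps of gluconeogenesis, and Hk1, Hk2, Pfkl and Pklr encode the controlled steps of glycolysis. The tissue was the whole ileum, the last stretch of the small intestine, of mice labelled wild type on the inbred C57BL/6N background, in 14 libraries. P24 denotes 4 libraries of untreated mice at postnatal day 24, after weaning, and P14 denotes 4 libraries of untreated suckling mice at day 14. rmIl22 denotes 3 libraries of mice given 0.1 µg recombinant mouse interleukin-22 per g of body weight by intraperitoneal injection, in 100 µL of phosphate-buffered saline, on days 14 and 15, and PBS denotes 3 libraries of mice given saline alone on the same days. The injected mice were killed on day 16 per the protocols, whereas the age field gives day 24 for rmIl22 and day 14 for PBS. The series asks how the ileum changes at weaning and what interleukin-22 (IL-22), a cytokine that signals to the epithelium by way of STAT3, does to it before weaning.

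Gluconeogenesis runs glycolysis backwards except at its irreversible steps, where separate enzymes are needed. Phosphoenolpyruvate carboxykinase, cytosolic (Pck1) or mitochondrial (Pck2), makes phosphoenolpyruvate from oxaloacetate. Fructose-bisphosphatase (Fbp1) undoes the phosphofructokinase step, and glucose-6-phosphatase (G6pc), fed by the glucose-6-phosphate carrier of the endoplasmic reticulum (Slc37a4), releases free glucose and undoes the hexokinase step. Hexokinases (Hk1, Hk2) trap glucose in the cell, the liver-type phosphofructokinase (Pfkl) commits it to glycolysis, and the liver and red cell pyruvate kinase (Pklr) ends the path. Liver and kidney are the main organs of gluconeogenesis, and the small intestine of the suckling rodent is known to express the same enzymes.

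Among the 9 genes, 4 of the gluconeogenic ones lay lower and Hk2 higher after weaning, as described below, so their promoter windows are shown. All windows are RefSeq's (GRCm38.p6), 250 bases before to 50 bases after an annotated start, read 5′ to 3′ on the gene's strand. Capitals mark matches, on either strand, to TGACG (the core of the cyclic AMP response element) or to GTTAAT (part of an HNF1 site).
Pck1, chr2:173152823-173153122, plus strand: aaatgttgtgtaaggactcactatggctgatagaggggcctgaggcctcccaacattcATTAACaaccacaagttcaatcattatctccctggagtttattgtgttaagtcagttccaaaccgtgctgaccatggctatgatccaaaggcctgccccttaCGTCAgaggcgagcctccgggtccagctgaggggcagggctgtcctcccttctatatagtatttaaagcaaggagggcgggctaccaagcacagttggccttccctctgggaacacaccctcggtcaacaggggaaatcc
G6pc, chr11:101367466-101367765, plus strand: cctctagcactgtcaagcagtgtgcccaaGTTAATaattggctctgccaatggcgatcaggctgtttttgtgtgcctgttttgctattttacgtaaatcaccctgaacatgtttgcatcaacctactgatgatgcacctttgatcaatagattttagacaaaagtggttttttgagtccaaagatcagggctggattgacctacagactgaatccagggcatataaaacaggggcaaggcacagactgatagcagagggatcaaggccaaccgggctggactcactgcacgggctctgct
Slc37a4, chr9:44396849-44397148, plus strand: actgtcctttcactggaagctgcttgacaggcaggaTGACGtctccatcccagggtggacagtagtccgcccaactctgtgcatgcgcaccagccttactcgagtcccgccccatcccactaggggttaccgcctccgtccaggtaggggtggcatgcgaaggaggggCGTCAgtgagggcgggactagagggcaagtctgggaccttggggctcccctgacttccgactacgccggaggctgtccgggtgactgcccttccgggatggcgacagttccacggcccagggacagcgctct
Fbp1, chr13:62888233-62888532, minus strand: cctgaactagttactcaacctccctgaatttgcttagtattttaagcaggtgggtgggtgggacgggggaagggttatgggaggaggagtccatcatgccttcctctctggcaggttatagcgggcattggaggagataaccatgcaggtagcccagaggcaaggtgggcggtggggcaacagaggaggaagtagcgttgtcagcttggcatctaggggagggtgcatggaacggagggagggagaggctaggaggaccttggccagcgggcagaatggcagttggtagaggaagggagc
Hk2, chr6:82774405-82774704, minus strand: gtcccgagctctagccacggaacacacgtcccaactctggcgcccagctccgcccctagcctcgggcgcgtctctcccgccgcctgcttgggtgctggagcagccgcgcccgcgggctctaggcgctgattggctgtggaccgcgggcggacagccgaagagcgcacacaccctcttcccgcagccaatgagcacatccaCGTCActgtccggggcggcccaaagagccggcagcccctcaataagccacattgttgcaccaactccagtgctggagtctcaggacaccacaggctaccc
The Pck1 window held TGACG, read on the minus strand, beginning 90 bases before the start. In rat, a cyclic AMP response element near the start is known to control this gene.

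Of 8 motifs searched on both strands, 3 occurred in the 13 windows of the 9 genes. TGACG was in 4 windows, those of Pck1 and Hk2 and an overlapping pair of Slc37a4 that share 1 match, and it is in 20.81% of all 32851 windows. The Slc37a4 window printed above belongs to this pair, and the remaining Slc37a4 window (chr9:44398104-44398403) held none of the 8 motifs. GTTAAT was in the windows of G6pc and Pck1 and is in 7.1% of all windows. TGTTCT, part of a glucocorticoid response element, was in 1 window, that of Hk1, and is in 18.97% of all. The full response element TGACGTCA (1.79% of all windows, overlapping TGACG), the FOXO motif GTAAACA (3.65%), the E-box CACGTG (7.15%), the STAT motif TTCNNNGAA (8.3%) and the HNF4 core CAAAGTCCA (0.47%) had no match in these windows. The Fbp1 window held none of the 8.

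Reads assigned to genes, recovered from the deposited TPM (a transcript level corrected for gene length and library total), numbered 35.6 to 46.5 M per library, and the 9 genes had 639 to 53411 reads in any library. All 9 passed the filter on low values in both comparisons. All p-values rest on the spread between the libraries of a group, which the series' text calls biological replicates. Libraries of the P24 and P14 groups are named by the numbers their columns carry (1, 2, 6 and 8 at P24, 1, 2, 4 and 5 at P14). Fabp6, the ileal bile acid binding protein, was present in every library, at 14400 to 21400 TPM at P24, 346 to 1180 TPM at P14, 1660 to 9880 TPM in rmIl22 and 214 to 2980 TPM in PBS. Saa1, a known IL-22 response gene chosen after its values were seen, had 1630 to 1880 TPM in rmIl22 libraries and 7.28 to 27.8 TPM in PBS libraries.

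Some libraries differed within their group in ways the labels do not give. Gata4, a transcription factor of the proximal small intestine that is low in ileum, had 0.0983, 15.8 and 0.177 TPM in rmIl22 libraries 1, 2 and 3, against 10.8, 13.8 and 17.4 TPM in the PBS libraries. At P24 it had 0.145 to 1.36 TPM, and at P14 it had 0.119 and 0.378 TPM in libraries 1 and 2 but 6.57 and 7.51 TPM in libraries 4 and 5. The Y-linked gene Ddx3y had at least 1 TPM in 1 of 4 P24 libraries (library 1), 2 of 4 P14 libraries (1 and 2), 1 of 3 rmIl22 libraries (library 1) and all 3 PBS libraries. In the injected mice, treatment thus partly coincides with both the Gata4 level and the presence of Y-linked transcripts, and cannot be fully told apart from them. Values within each comparison are also given with a term for each of these measures, chosen after seeing the data.

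After weaning, the ileum held far less RNA for the gluconeogenic enzymes Fbp1, Pck1 and G6pc and for the glucose-6-phosphate carrier Slc37a4, and more for Hk2. Fbp1 and Pck1 were 11.4-fold and 12.9-fold lower at P24 than at P14, G6pc 4.47-fold and Slc37a4 2.44-fold lower, and Hk2 was 4.25-fold higher, each on the TPM + 1 scale. In whole tissue, fewer cells of a type and less RNA per cell cannot be told apart. P24 and P14 mice differ in both age and weaning, which cannot be told apart either. Where the text speaks of age or of weaning it means this same comparison. Of the 9 genes, 5 passed limma's moderated test at an adjusted p under 0.05, 1 higher and 4 lower, where 58.3% of the 14651 genes tested passed, 14.6% of all higher and 43.7% lower. The same 5 had P24 and P14 values that did not overlap, as did 52.4% of all genes tested. With so large a background, the count of 5 does not set these genes apart, and the size of their changes is what follows.

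Fbp1 (ENSMUSG00000069805.10, mm10 chromosome 13, 62864753 to 62888282, minus strand), the fructose-bisphosphatase, had 35.3, 46.8, 33.3 and 25.4 TPM in P24 libraries, against 302, 429, 430 and 474 TPM in P14 libraries. Every P24 library was far below every P14 library, and the mean was 35.2 ± 8.82 TPM at P24 and 409 ± 74.1 TPM at P14 (SD, n = 4 each). The log2 fold change of Fbp1 came to -3.51 (SE 0.18, limma adjusted p = 2.32e-08). Fbp2, the muscle-type isoenzyme whose gene lies 6330 bases from Fbp1, was also abundant, with 304 ± 31.5 TPM at P24 and 445 ± 46.9 TPM at P14 (log2 fold change -0.55, adjusted p = 0.00135). The Fbp2 call was lost when TPM were scaled to each library's median gene (-0.24, adjusted p = 0.0906). Fbp1 made up 10.4 ± 2.46% of the summed TPM of both genes at P24 and 47.6 ± 4.19% at P14 (SD, n = 4 each). The sum itself was 339 ± 33.5 TPM at P24 and 854 ± 105 TPM at P14, a smaller fall than that of Fbp1 alone. Near-identical stretches of both genes were not assessed, so reads shared between them remain possible.

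Pck1 (ENSMUSG00000027513.11, chromosome 2, 173153048 to 173159273, plus strand), the cytosolic carboxykinase, had 9.32, 12.9, 21.1 and 30.3 TPM in P24 libraries, against 134, 233, 303 and 286 TPM in P14 libraries. The groups were far apart although P24 library 8 had over 3 times the level of P24 library 1, and the log2 fold change was -3.69 (SE 0.33, adjusted p = 2.74e-06). Pck2 (ENSMUSG00000040618.7, chromosome 14, 55540266 to 55551242, plus strand), the mitochondrial form, had 12.7, 10.5, 14.3 and 14.3 TPM at P24, against 16.5, 16.3, 19.6 and 13.1 TPM at P14. Its groups overlapped and it did not pass the test (log2 fold change -0.32, 95% interval -0.61 to -0.02, adjusted p = 0.0609). It passed when P14 library 5 was left out (-0.41, adjusted p = 0.0175). Pck1 made up 42.4 to 68% of the summed TPM of the pair at P24 and 89 to 95.6% at P14. Exons of Pck2 overlap an antisense gene, and whether the counting used strand is not given in the sources used here.

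G6pc (ENSMUSG00000078650.2, chromosome 11, 101367561 to 101377903, plus strand), the catalytic subunit of glucose-6-phosphatase, had 16.6, 20.1, 20.4 and 14.6 TPM in P24 libraries, against 58.6, 120, 90.5 and 74.1 TPM in P14 libraries. All P24 values lay close together and below all P14 values (log2 fold change -2.16, SE 0.19, adjusted p = 2.62e-06). Its carrier partner Slc37a4 (ENSMUSG00000032114.9, chromosome 9, 44396852 to 44402968, plus strand) had 50.9, 49.1, 39.4 and 32.8 TPM at P24, against 86.9, 111, 122 and 103 TPM at P14. It changed less than G6pc but again without overlap (-1.28, SE 0.15, adjusted p = 2.17e-05). The other phosphatase genes were not members of the 9: G6pc3, the widely expressed form, had 10.9 ± 0.682 TPM at P24 and 12.8 ± 2.25 TPM at P14 (SD, n = 4 each; adjusted p = 0.186), and G6pc2, the islet form, stayed under the filter at 0.0302 and 0.0239 TPM.

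Hk2 (ENSMUSG00000000628.10, chromosome 6, 82725025 to 82774454, minus strand), the inducible hexokinase, moved the other way, with 22.9, 30.6, 22.2 and 38.4 TPM in P24 libraries, against 4.69, 7.42, 6.86 and 4.59 TPM in P14 libraries. The lowest P24 library was well above the highest P14 library (log2 fold change 2.09, SE 0.19, adjusted p = 3.21e-06). Hk1 (ENSMUSG00000037012.18, chromosome 10, 62268855 to 62379908, minus strand), the constitutive hexokinase, had 5.04, 4.82, 6.13 and 5.63 TPM at P24, against 4.74, 4.77, 6.62 and 3.72 TPM at P14. Its groups overlapped (0.12, 95% interval -0.20 to 0.44, adjusted p = 0.499), though it passed as higher with TPM scaled to the median gene (0.38, adjusted p = 0.0139). Hk2 made up 78.3 to 87.2% of the summed TPM of Hk1 and Hk2 at P24 and 49.7 to 60.9% at P14. Exons of Hk1 also overlap an antisense gene.

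Pfkl (ENSMUSG00000020277.10, chromosome 10, 77986947 to 78010083, minus strand) had 38.8, 25.8, 33.1 and 22.9 TPM in P24 libraries, against 34.5, 39.3, 48.8 and 33.9 TPM in P14 libraries. The groups overlapped and the change did not pass (log2 fold change -0.38, 95% interval -0.74 to -0.01, adjusted p = 0.0689). Pklr (ENSMUSG00000041237.12, chromosome 3, 89136142 to 89146784, plus strand, overlapping exons of Hcn3 on the other strand) had 131, 133, 105 and 85.2 TPM at P24, against 115, 153, 154 and 95.7 TPM at P14. Its value was -0.18 (95% interval -0.58 to 0.21, adjusted p = 0.396), and 0.12 with TPM scaled to the median gene. Without P24 library 1 Pfkl passed as lower (-0.51, adjusted p = 0.0202).

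**Figure D1:**
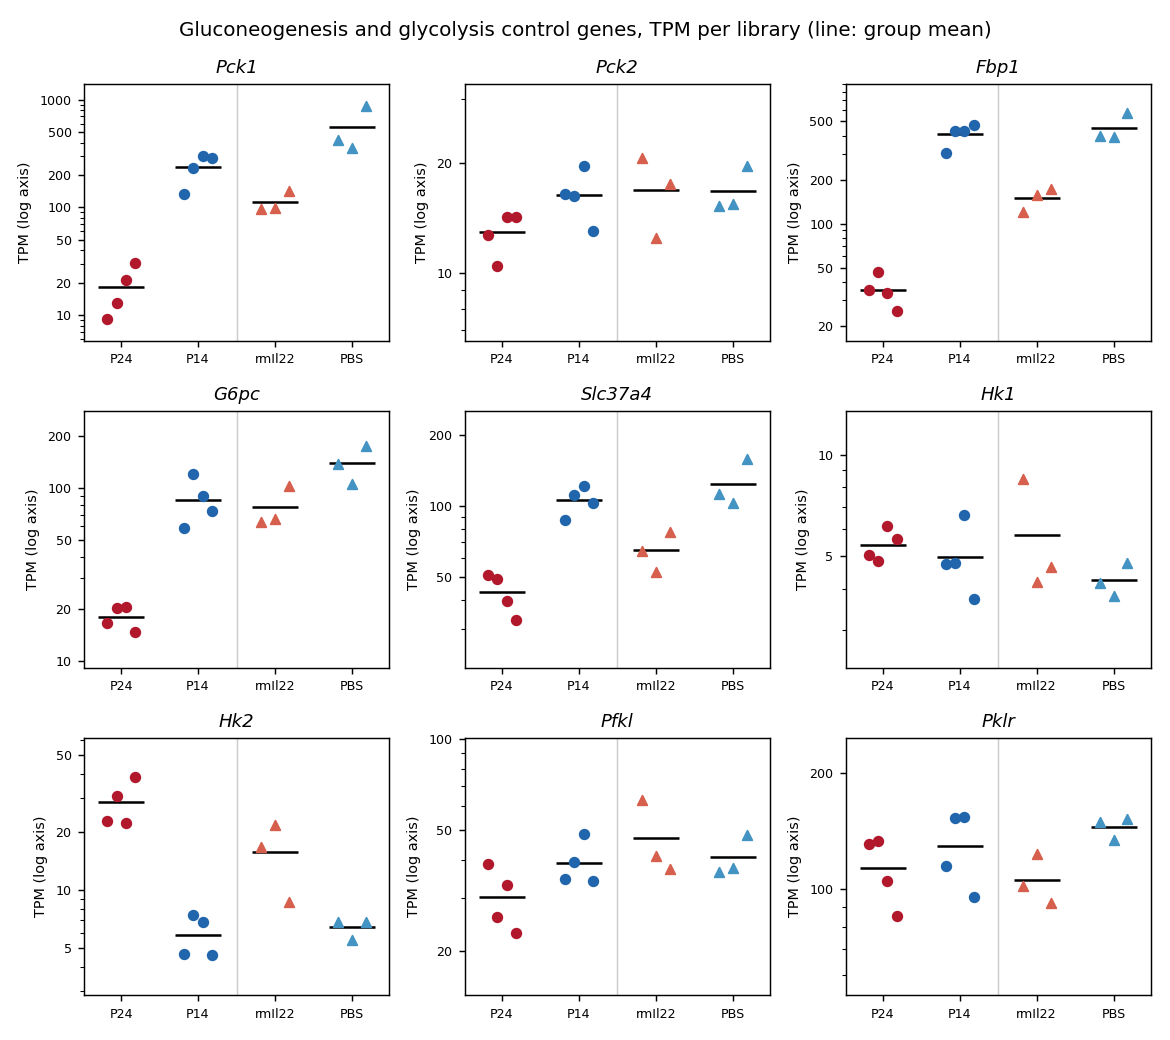
TPM of each of the 9 genes in every library (log axes, 1 point per library, bar at the group mean, circles for untreated and triangles for injected mice). P24 lies below P14 for Pck1, Fbp1, G6pc and Slc37a4 and above it for Hk2, and rmIl22 lies below PBS for the same 4 and above it for Hk2.

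The median log2 fold change of all genes was -0.25 between P24 and P14, and 0.02 after scaling to the median gene, which turned the split of calls from 2146 higher and 6400 lower into 4323 higher and 4139 lower (29.5% and 28.3% of genes tested). Under that scaling G6pc stood at -1.86, Pck1 at -3.39, Fbp1 at -3.21, Slc37a4 at -0.98 and Hk2 at 2.37, and all 5 passed. The authors' deposited table for the same comparison gave -1.92 for G6pc, -3.40 for Pck1, -3.22 for Fbp1, -0.96 for Slc37a4 and 2.59 for Hk2, with adjusted p under 0.05 for these and for Hk1 (0.46, adjusted p = 0.0313). The 5 calls held in each of 16 alternatives, the term for Gata4, the libraries with Gata4 under 2 TPM and the term for Y-linked transcripts included.

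Injection of IL-22 on days 14 and 15 was followed at day 16 by lower Pck1 and Fbp1 than after saline. Pck1 was 4.6-fold and Fbp1 2.99-fold lower in rmIl22 than in PBS on the TPM + 1 scale. These 2 of the 9 genes passed limma's test as lower and 0 as higher, where 2.69% of the 14456 genes tested passed, 2.25% lower and 0.443% higher. With limma voom on the recovered reads it was also 2 and 0, and at an unadjusted p under 0.05 it was 5 lower and 1 higher, where 15.5% of all genes had such a p. With TPM scaled to the median gene it was again 2 and 0, where 1.56% of genes tested were lower and 0.491% higher. The values of rmIl22 and PBS did not overlap for 6 of the 9 (Pck1, Fbp1, G6pc, Slc37a4, Pklr and Hk2), as for 21.1% of all genes tested.

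Pck1 had 97.4, 97.8 and 141 TPM in rmIl22 libraries, against 426, 358 and 879 TPM in PBS libraries. The rmIl22 values lay close together, while PBS library 3 stood well above the other PBS libraries, and the log2 fold change was -2.20 (SE 0.34, limma adjusted p = 0.0230). Fbp1 had 121, 156 and 173 TPM in rmIl22 libraries, against 396, 394 and 566 TPM in PBS libraries. Each rmIl22 library was far below each PBS library (-1.58, SE 0.20, adjusted p = 0.0148). With 3 libraries a group these calls depend on single libraries: Pck1 missed the threshold without PBS library 1 (adjusted p = 0.0870), PBS library 3 (-1.81, 0.0844), rmIl22 library 1 (0.0654) or rmIl22 library 3 (0.0526), and Fbp1 without PBS library 1 (0.0751) or PBS library 3 (0.0844). Both also missed it with no filter on low values (0.0761 for Pck1, 0.0517 for Fbp1), and over all 14 alternatives the fold change stayed between -2.46 and -1.81 for Pck1 and between -1.87 and -1.41 for Fbp1.

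G6pc had 63.3, 66.6 and 103 TPM in rmIl22 libraries, against 138, 106 and 175 TPM in PBS libraries. The groups only just failed to meet, and the change did not pass (log2 fold change -0.84, 95% interval -1.41 to -0.27, adjusted p = 0.139). Slc37a4 had 64.2, 52.5 and 77.4 TPM in rmIl22 libraries, against 112, 103 and 159 TPM in PBS libraries (-0.92, 95% interval -1.41 to -0.44, adjusted p = 0.0679). The authors' deposited table of genes changed by IL-22, which lists 1102 genes with adjusted p up to 0.00999, gave -2.24 for Pck1, -1.54 for Fbp1, -0.90 for Slc37a4 and 1.35 for Hk2, and did not list the other 5 members.

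Hk2 had 16.7, 21.7 and 8.73 TPM in rmIl22 libraries, against 6.88, 5.54 and 6.87 TPM in PBS libraries. rmIl22 libraries 1 and 2 were well above all PBS libraries and rmIl22 library 3 slightly above them, and the change did not pass (log2 fold change 1.09, 95% interval 0.40 to 1.78, adjusted p = 0.116). It passed in 3 of 14 alternatives: without rmIl22 library 3 (1.44, limma adjusted p = 0.0316), in 1 fit of all libraries, and with the Gata4 term described below. Hk1 had 8.45, 4.19 and 4.63 TPM in rmIl22 libraries, against 4.16, 3.81 and 4.76 TPM in PBS libraries, so only library 1 was high (0.32, 95% interval -0.23 to 0.87, adjusted p = 0.634).

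Pklr had 102, 123 and 92 TPM in rmIl22 libraries, against 149, 134 and 152 TPM in PBS libraries. The groups were separate, and the change did not pass (log2 fold change -0.46, 95% interval -0.78 to -0.14, adjusted p = 0.150) except without rmIl22 library 2 (-0.58, adjusted p = 0.0222). Pfkl had 63.1, 41.2 and 37.2 TPM in rmIl22 libraries, against 36.3, 37.7 and 48.3 TPM in PBS libraries (0.18, 95% interval -0.32 to 0.68, adjusted p = 0.797). Pck2 had 20.6, 12.5 and 17.5 TPM in rmIl22 libraries, against 15.3, 15.5 and 19.6 TPM in PBS libraries (-0.01, 95% interval -0.47 to 0.44, adjusted p = 0.989). The values of both genes overlapped between the groups, and rmIl22 library 1 was the highest of the 6 for each, as it was for Hk1.

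**Figure D2:**
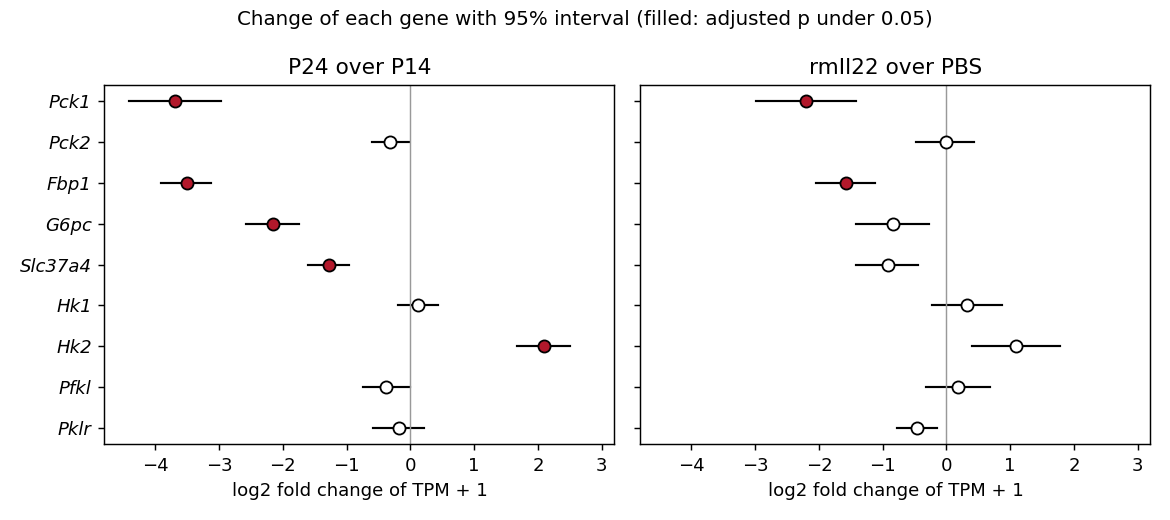
Log2 fold change of TPM + 1 for each gene, P24 over P14 (left) and rmIl22 over PBS (right), with 95% intervals from limma and filled points at an adjusted p under 0.05. Pck1 and Fbp1 are filled and negative in both panels, at -3.69 and -3.51 for age and -2.20 and -1.58 for IL-22, while Hk2 is filled for age alone.

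No rmIl22 library was like the PBS libraries in both Gata4 and Y-linked transcripts. The rmIl22 library with Gata4 at 15.8 TPM, library 2, had 97.8 TPM of Pck1, 156 TPM of Fbp1, 66.6 TPM of G6pc and 52.5 TPM of Slc37a4, each below every PBS library. The rmIl22 library with Y-linked transcripts, library 1, had 97.4, 121, 63.3 and 64.2 TPM of the same genes, again below every PBS library. With the Gata4 level as a term, Pck1 stood at -2.28, Fbp1 at -1.47, Hk2 at 1.56, Slc37a4 at -1.14 and G6pc at -0.98. Of the rmIl22 libraries only library 2 had Gata4 near the PBS level, so these values mainly compare that 1 library with PBS. A term for Y-linked transcripts leaves rmIl22 library 1 alone to be set against the 3 PBS libraries, so its values compare that 1 library, assumed to vary like the others, with PBS. Under it Fbp1 stood at -1.87 (adjusted p = 0.0362), Pck1 at -2.38 (adjusted p = 0.0817), G6pc at -1.10 (adjusted p = 0.209) and Slc37a4 at -0.92 (adjusted p = 0.260).

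**Figure D3:**
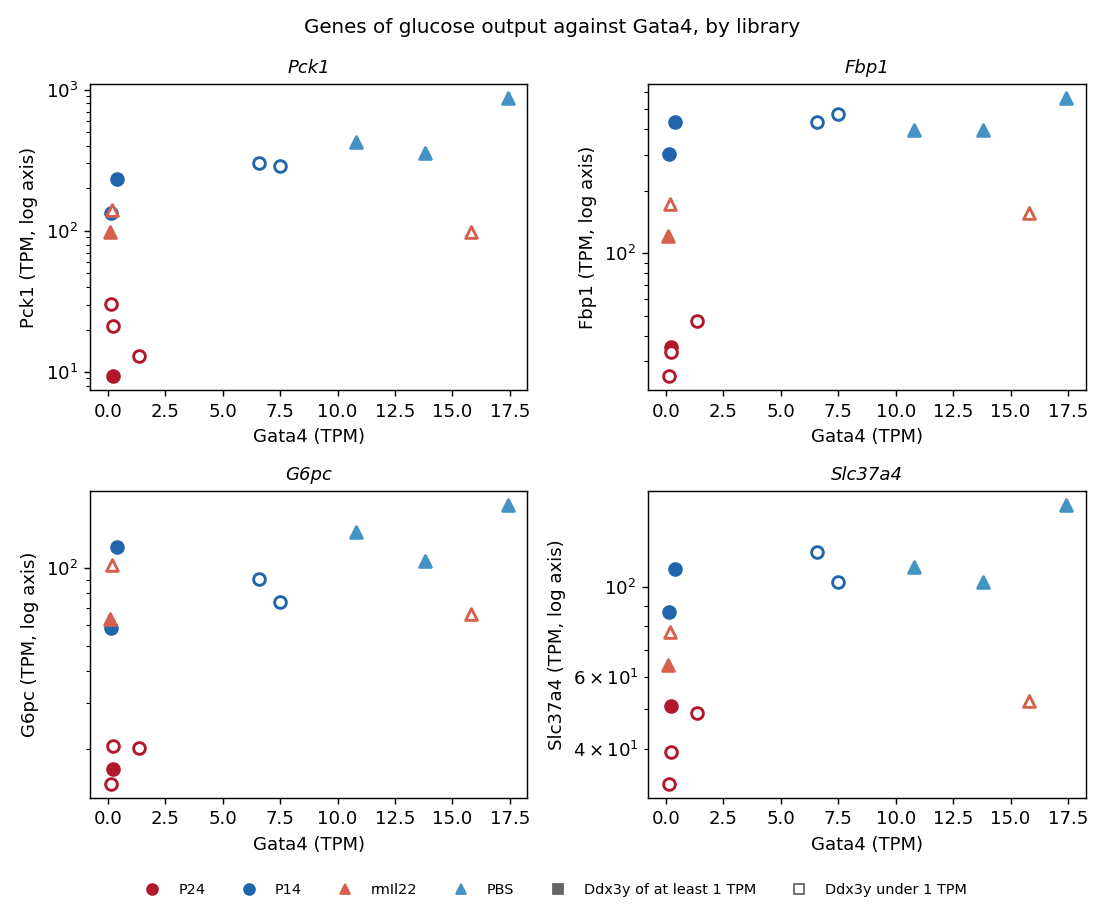
TPM of Pck1, Fbp1, G6pc and Slc37a4 (log axes) against Gata4 TPM in each of the 14 libraries, with filled marks for libraries with Ddx3y of at least 1 TPM. The rmIl22 library at 15.8 TPM of Gata4 sits under the PBS libraries at 10.8 to 17.4 TPM in all 4 panels, and the P24 libraries sit under the P14 libraries, those at 0.119 and 0.378 TPM of Gata4 included.

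Whether age and IL-22 moved a gene by different amounts was tested as the rmIl22 effect minus the P24 effect in 1 fit of all 14 libraries. The difference passed for 2 of the 9 genes, where 23.8% of the 15702 genes tested passed. The IL-22 effect on Fbp1 was the smaller of both (difference 1.93, SE 0.30, 95% interval 1.30 to 2.57, adjusted p = 5.19e-04), and so was that on G6pc (1.32, SE 0.34, 95% interval 0.59 to 2.04, adjusted p = 0.0134). Pck1 (1.49, 95% interval 0.31 to 2.67, adjusted p = 0.0641) and Hk2 (-1.0, 95% interval -1.79 to -0.20, adjusted p = 0.0644) did not pass, and passed in 4 and 2 of 18 alternatives, none of which had a term for Gata4 or Y-linked transcripts. Slc37a4 did not pass either, at 0.36 (95% interval -0.21 to 0.93, adjusted p = 0.337).

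The order of the 4 groups by mean level was the same for 4 of the genes. Pck1 was lowest at P24 (18.4 ± 9.34 TPM), followed by rmIl22 (112 ± 25.3 TPM), P14 (239 ± 76.4 TPM) and PBS (555 ± 283 TPM), and of these neighbours rmIl22 and P14 overlapped. For Fbp1 the order was P24 (35.2 ± 8.82 TPM), rmIl22 (150 ± 26.8 TPM), P14 (409 ± 74.1 TPM) and PBS (452 ± 98.7 TPM), with overlap between P14 and PBS. Slc37a4 ran in the same order (43 ± 8.46, 64.7 ± 12.4, 105 ± 14.7 and 124 ± 30.2 TPM, overlap between P14 and PBS). So did G6pc (18 ± 2.83, 77.7 ± 22.1, 85.9 ± 26.4 and 140 ± 34.7 TPM), where P24 alone stood clear of its neighbour. Hk2 ran downwards through P24 (28.5 ± 7.61 TPM), rmIl22 (15.7 ± 6.55 TPM), PBS (6.43 ± 0.768 TPM) and P14 (5.89 ± 1.46 TPM), with overlap between PBS and P14 (SD, n = 4 for P24 and P14, n = 3 for rmIl22 and PBS). All neighbours overlapped for Pck2 (group means 12.9 to 16.8 TPM), Hk1 (4.24 to 5.76 TPM), Pklr (106 to 145 TPM) and Pfkl (30.2 to 47.2 TPM). PBS and P14 mice differ in age and in injection, and their libraries also differ in Gata4 and Y-linked transcripts. These cannot be told apart, so that pair was not tested.

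Opposing enzymes were set against each other within each library as ratios of TPM, given as a description without a test. G6pc over the sum of Hk1 and Hk2 was 0.332 to 0.723 at P24 and 6.21 to 9.88 at P14, and 2.52, 2.57 and 7.72 in rmIl22 against 12.5, 11.3 and 15.1 in PBS. With these hexokinases alone, the ratio was under 1 in every P24 library and above 1 in every other library. Fbp1 over Pfkl was 0.911 to 1.81 at P24 and 8.76 to 14 at P14, and 1.91, 3.79 and 4.66 in rmIl22 against 10.9, 10.5 and 11.7 in PBS. Pck1 over Pklr was 0.0711 to 0.356 at P24 and 1.16 to 2.99 at P14, and 0.96, 0.792 and 1.54 in rmIl22 against 2.87, 2.67 and 5.8 in PBS. The groups of each comparison did not overlap for any of the 3 ratios. RNA ratios say nothing of enzyme activity or flux, and Hkdc1, a further hexokinase-like gene, changes the first. With it in the sum, the ratio was 0.139 to 0.216 at P24 and 1.59 to 2.51 at P14, again without overlap, and 0.834, 0.585 and 1.94 in rmIl22 against 1.71, 1.34 and 2.16 in PBS. The rmIl22 and PBS values then overlapped, and rmIl22 libraries 1 and 2 were under 1 as well. Fbp1 over Pfkl and Pck1 over Pklr leave out the isoenzymes Fbp2, Pfkp and Pkm. At P24 these had means of 304, 79.6 and 362 TPM, against 35.2 TPM for Fbp1, 30.2 TPM for Pfkl and 113 TPM for Pklr. Where such a ratio lies relative to 1 thus depends on the isoenzymes chosen.

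**Figure D4:**
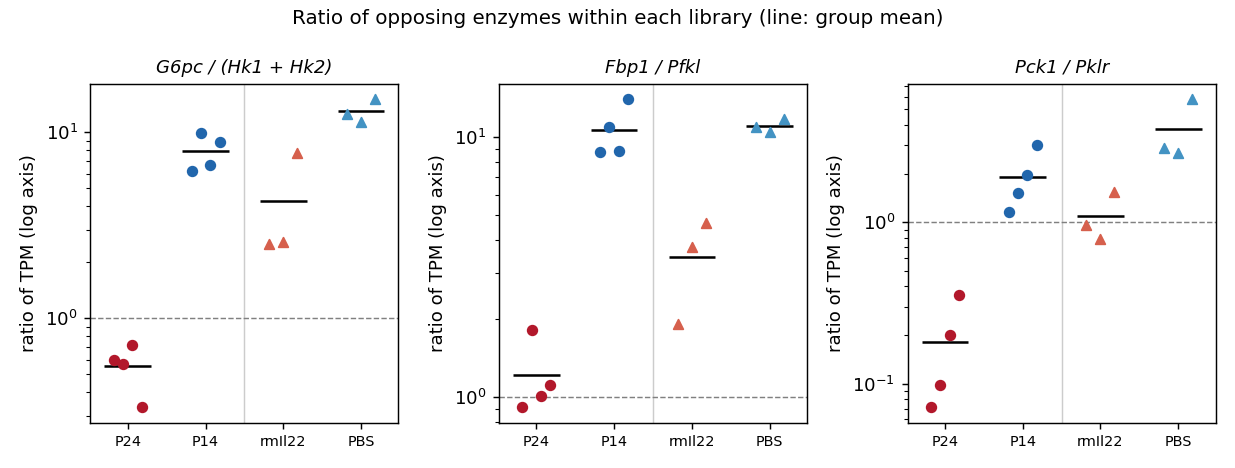
Ratio of TPM of opposing enzymes in each library (log axes, bar at the group mean, dashed line at a ratio of 1). G6pc over Hk1 plus Hk2 lies under 1 in the 4 P24 libraries (0.332 to 0.723) and above it in the other 10, and rmIl22 lies under PBS in all 3 panels. Hkdc1, Fbp2, Pfkp and Pkm are not part of these ratios.

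Among the other gluconeogenic genes, calls at weaning went in both directions. Of 15 further genes of gluconeogenesis and substrate entry, 5 rose, 2 fell, 7 did not pass and 1 was not tested between P24 and P14, with a median log2 fold change of 0.14 against -0.25 over all genes. The 7 calls among 14 tested lie near the 58.3% of all genes called (14.6% higher, 43.7% lower), so the count does not set the list apart. Scaled to the median gene it was 8 higher and 1 lower, against 29.5% and 28.3% of all genes. Pcx, the pyruvate carboxylase that feeds oxaloacetate to the path, rose to 31.3 ± 8.98 TPM at P24, against 4.94 ± 0.955 TPM at P14 (log2 fold change 2.42, limma adjusted p = 4.95e-07). Gpt, the cytosolic alanine aminotransferase, rose to 138 ± 18.6 TPM at P24, against 10.7 ± 6.41 TPM at P14 (3.71, adjusted p = 8.45e-07). Besides Fbp2, the mitochondrial aspartate aminotransferase Got2 fell (-0.65, adjusted p = 5.29e-04).

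Most of the other glycolytic genes rose at weaning, with 13 higher, 3 lower and 1 not passing among the 17 tested of 19 (13 and 2 after scaling to the median gene), and a median log2 fold change of 0.67. Of all genes tested 14.6% were higher and 43.7% lower (29.5% and 28.3% after scaling). The largest rises were in the enolase Eno1 (143 ± 25.6 TPM at P24 and 50.3 ± 7.97 TPM at P14, log2 fold change 1.48), the pyruvate kinase Pkm (362 ± 61.1 and 137 ± 21.2 TPM, 1.39) and the glucose-6-phosphate isomerase Gpi1 (1.22). Hkdc1 rose to 66.7 ± 6.39 TPM at P24, against 31.3 ± 11.2 TPM at P14 (adjusted p = 0.00108), and Ldha, a lactate dehydrogenase subunit, rose by 0.90. The muscle-type genes Pgam2 (-2.35) and Pfkm (-0.87) fell, as did the neuronal enolase Eno2 (-0.42), whose call was lost after scaling to the median gene (-0.25). Hk3, a further hexokinase (0.991 TPM at P24, 0.814 TPM at P14), was under the filter.

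The shares of isoenzymes within a library differed between groups as well. Pfkp, the platelet-type phosphofructokinase, rose to 79.6 ± 8.29 TPM at P24, against 38.4 ± 6.59 TPM at P14 (1.04, adjusted p = 4.11e-05), so that Pfkl made up 21.4 to 30.3% of the summed TPM of Pfkl, Pfkm and Pfkp at P24 and 40.6 to 44.2% at P14. Pklr made up 22.1 to 25.2% of the summed TPM of Pklr and Pkm at P24 and 44.7 to 51.2% at P14, with Pklr itself not passing the test. In rmIl22 the Pklr share was 28.9 to 38.5%, and in PBS it was 43.5 to 50.7%, while the Pfkl share overlapped between them (35.4 to 46.3% and 37.2 to 39.8%).

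After IL-22, 2.69% of all genes were called, so lists of this size can hold few calls. Among the further gluconeogenic genes, 1 of 14 tested was lower, the cytosolic malate dehydrogenase Mdh1 (283 ± 33.2 TPM in rmIl22 and 496 ± 70.1 TPM in PBS, n = 3 each, log2 fold change -0.80, limma adjusted p = 0.0412), a call kept in 6 of 14 alternatives. Of 18 glycolytic genes tested, 0 passed limma's test, also by voom, and 3 had an unadjusted p under 0.05. The isoenzymes and neighbours named here did not pass, with Fbp2 at 467 ± 14.3 TPM in rmIl22 and 546 ± 52.7 TPM in PBS (-0.22, adjusted p = 0.477), Hkdc1 at -0.30 (0.703), Pcx at 0.31 (0.763), Pkm at 0.26 (0.686), Ldha at 0.03 (0.978), Pfkp at 0.21 (0.599), Pfkm at -0.41 (0.421), G6pc3 at -0.13 (0.749) and Hk3 at 0.17 (0.850). Fbp1 made up 20.2 to 27.8% of the summed TPM of Fbp1 and Fbp2 in rmIl22 and 43.1 to 48.3% in PBS. The sum itself was 617 ± 18.4 TPM in rmIl22 and 998 ± 151 TPM in PBS, a smaller fall than that of Fbp1 alone.

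**Figure D5:**
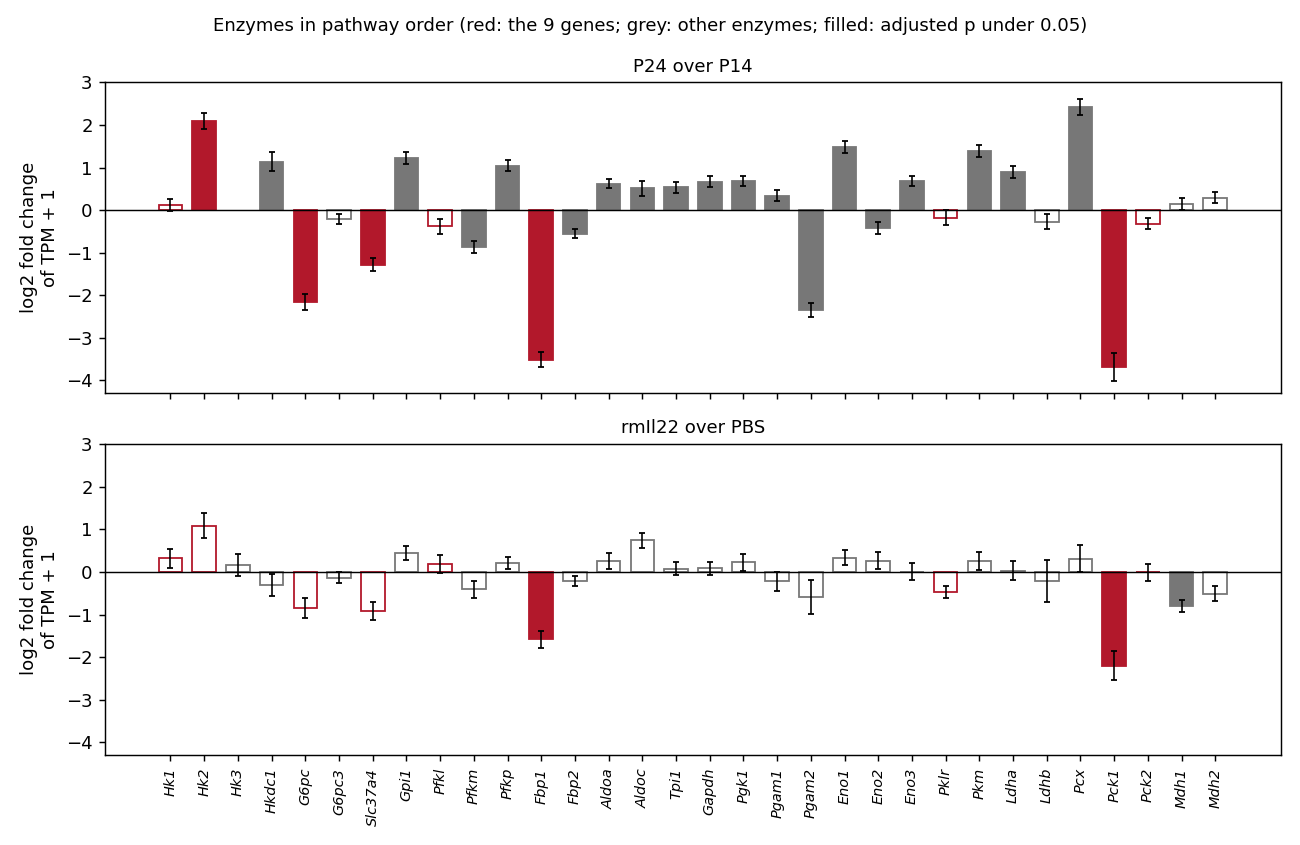
Log2 fold change of TPM + 1 with its standard error for enzymes from hexokinase to lactate dehydrogenase, then pyruvate carboxylase to malate dehydrogenase (red for the 9 genes, grey for other enzymes, filled at an adjusted p under 0.05, no bar where a gene was under the filter). At weaning Fbp1, Pck1, G6pc and Slc37a4 point down between enzymes such as Eno1 (1.48), Pkm (1.39) and Pcx (2.42) that point up, and after IL-22 the filled bars are Fbp1, Pck1 and Mdh1.

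Fructose 2,6-bisphosphate activates phosphofructokinase and inhibits fructose-bisphosphatase. Genes that set its level or the fate of pyruvate gave 3 rises and 4 falls among 15 tested of 16 between P24 and P14. That share of calls is not above the 58.3% of all genes. After scaling to the median gene it was 9 and 2, where 29.5% of all genes were higher and 28.3% lower, so rises were then more frequent than over all genes. Pfkfb4, a bifunctional enzyme that makes and breaks fructose 2,6-bisphosphate, rose to 57.6 ± 13.1 TPM at P24, against 18.8 ± 3.98 TPM at P14 (1.56, limma adjusted p = 1.69e-05). The mitochondrial pyruvate carrier subunit Mpc2 rose by 0.79 and the pyruvate dehydrogenase kinase Pdk1 by 0.45. Pdk4, the fasting-induced kinase of the same family, fell to 3.57 ± 2.18 TPM at P24, against 19.6 ± 7.89 TPM at P14 (-2.19, adjusted p = 3.00e-04), and the phosphatase Pdp2 fell by 1.31. Pdk3 fell by 0.43, a call that was lost after scaling to the median gene (-0.13). In rmIl22 against PBS, 0 of 15 passed limma's test or voom and 2 had an unadjusted p under 0.05. Pdk4 stood there at 13.6 ± 1.18 TPM in rmIl22 and 12 ± 2.35 TPM in PBS. Pdp2 had 23.7 ± 3.46 TPM in rmIl22 and 47.3 ± 10.6 TPM in PBS (-0.95, limma adjusted p = 0.0521), and passed as lower in 4 of 14 alternatives.

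Of 22 transcriptional regulators of these paths, 5 rose, 6 fell and 11 did not pass between P24 and P14 (9 rose and 4 fell after scaling to the median gene). With 58.3% of all genes called before scaling, the 11 unscaled calls do not set the list apart. After scaling, 29.5% of all genes were higher and 28.3% lower. Mlxipl, the glucose-sensing factor ChREBP that drives Pklr in liver, rose to 10.3 ± 2.08 TPM at P24, against 4.59 ± 0.88 TPM at P14 (1.01, limma adjusted p = 1.82e-04). The coactivator gene Ppargc1b (0.72) and the nuclear receptor gene Hnf4g (0.53) rose too. Srebf1, a factor of lipid synthesis, fell by 1.24, and the CCAAT-binding factors Cebpa and Cebpb, activators of gluconeogenic genes in liver, fell by 0.97 and 0.76. After IL-22, 0 of the 22 passed limma's test or voom and 3 had an unadjusted p under 0.05. Stat3, named because it carries the IL-22 signal, had 35.1 ± 7.49 TPM in rmIl22 and 34.7 ± 3.65 TPM in PBS (adjusted p = 0.994).

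Markers of other cells moved with some of these results. Of all genes tested, 14.6% were called higher and 43.7% lower at weaning, and 0.443% and 2.25% after IL-22. Liver expresses the same gluconeogenic genes, and its defining transcripts Alb (0 to 0.181 TPM) and Ahsg (0 to 0.172 TPM) were near 0 in all 14 libraries, although the summed level of the 8 liver markers, through Ttr, was 17.1 to 40.7 TPM at P24 and 131 to 168 TPM at P14, and 24.7 to 46.9 TPM in rmIl22 and 117 to 143 TPM in PBS. Of the 5 tested at weaning Cyp2e1 and Tat were higher and Ttr and Serpina1a lower, and of the 3 tested after IL-22 Tat was higher and Ttr lower. Fat cells also express Pck1. Of 7 adipocyte markers tested, 5 were higher and Cidec was lower at P24, and the sum over all 8 was 248 to 423 TPM at P24 and 136 to 181 TPM at P14, opposite in direction to Pck1. In rmIl22 it was 133 to 219 TPM and in PBS 167 to 316 TPM, with 0 of 7 past limma's test or voom and 2 at an unadjusted p under 0.05. Adipoq, a defining fat cell marker, was at 0 in P14 library 2, where Pck1 had 233 TPM, and at 31.9 TPM in PBS library 3, the library with the most Pck1. Without that library the log2 fold change of Pck1 was -1.81, with Adipoq at 7.57 and 9.98 TPM in the PBS libraries that remained. The part of fat cells in the Pck1 values was not tested.

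Epithelial markers were more often higher than lower at P24, where 14.6% of all genes tested were higher and 43.7% lower. Of 9 such markers, 5 were higher and Krt18 was lower, and their sum was 13100 to 16200 TPM at P24 and 7350 to 9300 TPM at P14. In rmIl22 it was 9270 to 13200 TPM and in PBS 9220 to 10600 TPM, with 0 of 9 past limma's test or voom and 1 at an unadjusted p under 0.05. Of 5 red cell markers, a source of Pklr and Hk1 transcripts, 4 were higher and 0 lower at P24 (voom: 5 higher; at an unadjusted p under 0.05: 5 higher and 0 lower), with sums of 218 to 801 TPM at P24 and 132 to 219 TPM at P14, and of 155 to 312 TPM in rmIl22 and 98.1 to 217 TPM in PBS. Their part in the Pklr and Hk1 values was not tested.

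The genes with the most similar pattern were found by Pearson's r of log2(TPM + 1) over the 14 libraries, among 15701 other genes. The libraries fall into groups of differing age and treatment, so r mainly describes the order of groups and carries no test. Closest to Fbp1 were Igfals (r = 0.994), Tmem229b and Ang (both 0.992). Closest to G6pc were Cnnm2 (0.988), Rab11fip3 (0.980) and Sumf1 (0.979), and closest to Pck1 were Cdip1 (0.980), Zfp764 (0.977) and Capn15 (0.973). Slc37a4 was most like Gm17344 (0.982), Rnpepl1 (0.976) and Rec8 (0.975), and Hk2 like Stk25 (0.979), Zc3h12a (0.978) and RP24-174G2.1 (0.972). For the 4 genes that passed neither test the closest were less alike, at 0.952 for Pck2 (Nudt21), 0.940 for Pklr (Tmem19), 0.911 for Pfkl (Narf) and 0.910 for Hk1 (Slc25a12). None of the 9 was among the 3 genes closest to another of them, a ranking by highest r that leaves out opposite patterns. Among themselves Pck1, Fbp1, G6pc and Slc37a4 still had r of 0.90 to 0.95, and Hk2 had r of -0.92 to -0.82 with these genes.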

How the data were processed

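RNA of whole ileum was made into strand-specific libraries after removal of ribosomal RNA, per the labels' protocols. The deposited expression table holds TPM per gene symbol and library, and FastQC 0.11.2, STAR 2.4.0f, HTSeq 0.6.1p1, DESeq2 1.14 and the mm10 genome are listed in the submitters' processing notes. Neither the annotation nor the use of strand in counting is given in the sources used here. The authors' deposited tables of comparisons give log2 fold changes and adjusted p-values with decimal commas, read as points. Of 46882 entries, 27 whose symbols had become date numbers were left out. Columns of the P24 and P14 libraries carry numbers other than the labels' replicate numbers and were assigned to groups only.

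Tests were limma 3.58.1 (R 4.3.3) with an intensity trend on log2(TPM + 1), which understates changes of low genes. A comparison used its own libraries only, two-sided, for genes with at least 1 TPM in at least 4 (P24 against P14) or 3 (rmIl22 against PBS) libraries, with Benjamini-Hochberg adjustment over all genes tested and a threshold of 0.05. The effects of age and IL-22 were compared by a contrast, fitted over the 14 libraries together. TPM values were taken as whole multiples of 1 read's worth. Whole reads (within 0.01) were fitted for 100% of the 31216 genes with any value above 0, with a median of 42.7 M per library. A gene with a value in 1 library always fits, so this share says little for genes seen in few libraries. Limma voom on the recovered reads called 9117 genes at weaning and 385 after IL-22. The fits were tested on simulated data. Gene positions come from GENCODE M21 on mm10, overlaps included. Alternatives were a pseudocount of 0.1, no filter, scaling to each library's median gene, 1 fit of all libraries, voom, each library left out, a replicate block and, chosen after seeing the data, terms for Gata4 and Y-linked transcripts. rmIl22 and PBS libraries of the same number deviated together with correlations of -0.07, 0.33 and -0.05.

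The 9 genes and the lists were chosen with earlier results of these data known. Besides the 9 and their isoenzymes and neighbours, the text names at most the 3 largest rises and 3 largest falls of each list among called genes, and the 3 genes most like each of the 9; some list genes are not reported here. Gata4, Fabp6, Saa1, Ddx3y and the marker genes are named to describe libraries. Of the lists of other cells, those of smooth muscle, neurons and glia, lymphocytes and macrophages were also run.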

Additional observations from a re-analysis of the deposited data

Results flagged for a closer look

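Fbp2, the muscle-type fructose-bisphosphatase, had 351 TPM in P24 library 1 and 284 to 291 TPM in the other 3 P24 libraries. The gap to its nearest neighbour was 0.895 of the group's range, past Dixon's critical value. Of 34 groups of 4 libraries tested (17 genes), this was the 1 past it, and chance flags about 1 in 20.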

How the results depend on the processing

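At weaning, the 5 calls among the 9 genes kept their direction and side of the threshold in each of 16 alternatives. Counts over all genes there stayed between 7484 and 9435, against 8546. After IL-22, counts were less stable. The 389 genes called became 98 with no filter, 1039 in 1 fit of all 14 libraries and 122 with a term for Y-linked transcripts (which sets rmIl22 library 1 alone against PBS), and 4 (without PBS library 3) to 1324 (without rmIl22 library 2) with a library left out. Without PBS library 1 it was 14. The 2 of 9 genes called became 0 with no filter, 4 in 1 fit of all libraries (Slc37a4 and Hk2 added), 1 with the Y-linked term, and 0 to 3 with a library left out. A fit of all libraries draws its spread from all groups, and with no filter more genes are tested; the cause of the other moves was not tested. For the 9 genes, no value that passed the test changed sign. Values that did not pass took the other sign for Pklr at weaning (0.12, median-scaled), Pfkl after IL-22 (-0.05 without rmIl22 library 1 to 0.33 without rmIl22 library 3), Pck2 after IL-22 (-0.01, against 0.05 median-scaled, 0.07 by voom, 0.28 with the Y-linked term, and -0.16 to 0.18 with a library left out) and the difference of effects for Hk1 (0.20, against -0.02 median-scaled and -0.07 to 0.36 with a library left out). Whether the number shared by rmIl22 and PBS libraries pairs them is not known. Not every library correlated best with its own number, and with 3 libraries a group this cannot exclude pairing. With the shared number as a replicate block, 280 genes and 3 of the 9 passed, Slc37a4 added (limma adjusted p = 0.0347). No paired analysis was possible for age because the columns do not carry the labels' numbers. The differences between both effects passed for 2 or 3 of the 9 genes in every alternative run. The 9 genes had at least 639 reads in each library. How depth or the number of libraries bears on the counts was not tested.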

Other observations

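Of the other cell lists, neurons and glia had 8 of 8 tested markers lower at P24 than at P14 (7 after scaling to the median gene), smooth muscle 2 of 6 higher and 0 lower (limma, 2 at an unadjusted p under 0.05, voom 2 higher), lymphocytes 2 of 7 higher and 0 lower (2 at an unadjusted p under 0.05, voom 2 higher), and macrophages and granulocytes 2 higher (Lyz2, Itgam) and 2 lower (Csf1r, Cd68) of 6. Of all genes tested at weaning, 14.6% were higher and 43.7% lower (29.5% and 28.3% after scaling). Between rmIl22 and PBS, 1 of 7 macrophage and granulocyte markers, Csf1r, was lower (log2 fold change -1.16), as were 2.25% of all genes tested. Of the other 3 lists 0 passed limma's test or voom, with 0 of 6 smooth muscle, 1 of 8 neuronal and 1 of 7 lymphocyte markers at an unadjusted p under 0.05. For red cell markers after IL-22 it was 0 of 5 by all 3 counts.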
